A study of Mus musculus with 6 samples.

Results

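Mast cell genes were read on arrays of macrophages (F4/80+ CD11b+) sorted from the dorsal root ganglia (DRG) of mice with spared nerve injury (SNI). The 9 genes encode the IgE receptor chains Fcer1a and Ms4a2, the receptor Kit, the granule proteases Tpsab1, Tpsb2, Cma1, Mcpt4 and Cpa3, and Hdc, which makes histamine. The platform annotation assigned 13 probe sets to them, each to a single gene, out of 45037 tested, which name 18193 genes, and all 13 are given below. Fcer1a, Tpsab1, Cma1, Mcpt4 and Cpa3 had a single probe set and the other 4 genes had 2. These genes were chosen by their role as mast cell markers and with the WT and miR-21 cKO signals of the same arrays already known, so the genotype values of the 9 genes are a description and carry no test.

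The 6 arrays fall into a WT group of 3 and a miR-21 cKO group of 3, from injured male mice 8 to 10 weeks old, the WT mice being littermates of the miR-21 cKO mice. In the miR-21 cKO line a conditional miR-21 allele was recombined by Cre under the advillin promoter, which acts in sensory neurons, so the sorted macrophages were not the cells targeted. The annotation gives miR-21 no probe set, so these arrays do not check the deletion. Each array held macrophages sorted on day 7 from pooled DRG (L4 and L5, ipsilateral to the injury), and the number of mice in a pool is stated for the flow cytometry preparations and not again for the array sort. Pools were collected independently, less than 1 ng of total RNA was amplified from each, and the values are MAS5 signals on a linear scale, with 1 signal per probe set and array. Signals below are in the order of arrays 1, 2 and 3 of a genotype.

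Mast cells are tissue-resident immune cells that lie along nerves and vessels. They carry the high-affinity IgE receptor and Kit, the receptor for stem cell factor on which their survival depends. Their granules hold histamine and large amounts of tryptases, chymases and carboxypeptidase, which are released when IgE on the receptor is cross-linked by antigen. The F4/80 and CD11b gate does not use these markers.

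The sequence of the deleted microRNA is shown because it is the only difference the labels give between the genotypes. It is the RefSeq entry of build GRCm38.p6 at chr11:86584120-86584141, minus strand, and the seed, bases 2 to 8, is in capitals.
mmu-miR-21a-5p: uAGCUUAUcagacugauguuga

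Short stretches upstream of the start of 5 member genes are shown for the letters they share, since GATA factors take part in mast cell gene expression. The RefSeq table (GRCm38.p6) held a promoter window, 250 bases before to 50 after the start, for 7 of the 9 genes and none for Tpsab1 and Tpsb2. The letters GATAA, on either strand (TTATC on the other), were in the windows of Fcer1a, Ms4a2, Cma1, Mcpt4 and Cpa3, 5 of the 7, and in 25.8% of 27025 windows, 1 per gene. The letters CACATG, read as CATGTG from the opposite strand, were in 1 of the 7, Fcer1a, and in 14.1% of all. A match describes the letters only. The stretches lie on the minus strand at chr3:20242210-20242238 (Cpa3), chr19:11623740-11623768 (Ms4a2), chr1:173227305-173227333 (Fcer1a), chr14:56062396-56062424 (Mcpt4) and chr14:55944853-55944881 (Cma1), with the match in capitals. It begins 45 bases before the start of Cpa3, 37 before that of Ms4a2, 92 before that of Fcer1a, 102 before that of Mcpt4 and 194 before that of Cma1. Ms4a2 has another match, 224 bases before its start (chr19:11623927-11623955), and the one nearer to the start is printed.
Cpa3: gctgttcgtcgaGATAAaagctgaggtat
Ms4a2: cagcctggagacTTATCtgacaagtaggt
Fcer1a: acaaccctattaTTATCtctggagaaagc
Mcpt4: atgagaatttctGATAAggaaagtagagc
Cma1: tcactgcaaagaTTATCctctacccaaga

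The first question was whether the arrays held signal of these genes above that of genes not expected in the sorted cells. Olfactory receptors (Olfr), read by 47 probe sets, served as background because the deposited values carry no detection calls. None of the 13 mast cell probe sets had a mean log2 signal over the 6 arrays above the Olfr 95th percentile (10.02 on the log2 scale, a signal of 1037), where 4.95% of all tested probe sets had. The means of the 13 lay between 6.93 and 9.38 on the log2 scale, with a median of 8.21, against a median of 8.31 for Olfr and 8.04 for all tested probe sets. Probe sets bind with different strength, so these values place the mast cell probe sets within the range of Olfr and do not order the genes by RNA amount.

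On single arrays, the 95th percentile of Olfr lay between 1464 and 2177. Of the 78 mast cell signals, 13 on each of 6 arrays, 2 were above that of their own array. These were Tpsb2 (1422180_a_at) with 1863 on miR-21 cKO array 1 and Kit (1415900_a_at) with 1792 on miR-21 cKO array 3. All 39 signals in WT and the other 37 in miR-21 cKO were below. The share of 2.56% compares with 5.80% of all tested signals and 6.38% of Olfr signals. Signals of 1 probe set spread widely among the arrays, from 3.97-fold between the highest and the lowest array for Hdc (1451796_s_at) to 55.1-fold for Kit (1452514_a_at). The median of that range was 20.8-fold for the 13 probe sets, 17.5-fold for Olfr and 15.8-fold for all tested probe sets. The plot of signals by probe set shows these values.

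**Figure D1:**
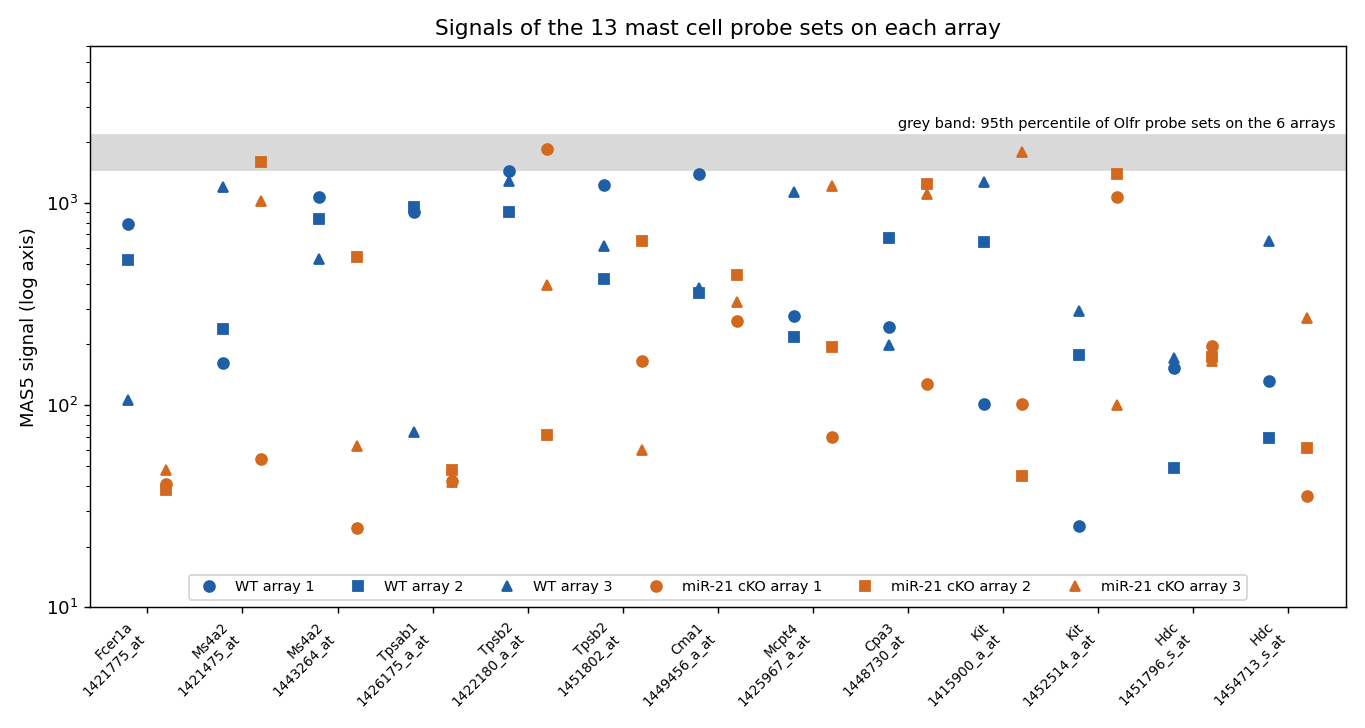
MAS5 signal (log axis) of the 13 mast cell probe sets on each of the 3 WT and 3 miR-21 cKO arrays, 1 point per array, with the grey band spanning the 95th percentile of Olfr probe sets on the 6 arrays (1464 to 2177). The Kit and Tpsb2 points at 1792 and 1863 are the 2 above the percentile of their own array.

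Of the chains of the IgE receptor, Fcer1a encodes the alpha chain, which binds IgE. Fcer1a (1421775_at) read 793, 522 and 106 in WT and 40.9, 38.1 and 47.7 in miR-21 cKO. Every miR-21 cKO array lay below every WT array, and the lowest WT array, 106, was much closer to them than the other 2 WT arrays. The means were 474 ± 346 (SD, n = 3) and 42.2 ± 4.95 (SD, n = 3), and the fitted log2 difference, miR-21 cKO minus WT, was -3.07 (standard error 1.41). All 6 signals were under the Olfr 95th percentile of their array, so the difference is one between measured signals and not a fold of expression. In bulk RNA of sorted cells, fewer cells of a type and less RNA per cell cannot be told apart.

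Ms4a2 encodes the beta chain, which amplifies the signal of the receptor. Its probe set 1443264_at read 1071, 838 and 528 in WT and 24.8, 541 and 62.6 in miR-21 cKO, a log2 difference of -3.05 (standard error 1.44). WT array 3 (528) and miR-21 cKO array 2 (541) overlapped. Its other probe set, 1421475_at, read 161, 238 and 1196 in WT and 54.0, 1593 and 1026 in miR-21 cKO. There the log2 difference was 0.31 (standard error 1.30), the genotypes overlapped, and the brightest of the 6 was miR-21 cKO array 2. The 2 probe sets of Ms4a2 differed by 3.36 in their log2 difference (standard error 1.94 if the errors were independent).

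Kit, the receptor for stem cell factor, had 2 probe sets with opposite differences. Kit 1415900_a_at read 101, 646 and 1279 in WT and 102, 44.5 and 1792 in miR-21 cKO, a log2 difference of -1.12 (standard error 1.41). Kit 1452514_a_at read 25.4, 177 and 292 in WT and 1070, 1398 and 100.5 in miR-21 cKO, a log2 difference of 2.28 (standard error 1.47). The array that was brightest with the first, miR-21 cKO array 3, was the dimmest of its genotype with the second, and the genotypes overlapped with both.

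Tpsab1 and Tpsb2 are tryptase genes next to each other in the genome, with no gene between them in RefSeq. RefSeq gives Tpsab1 of the C57BL/6J genome as a transcribed pseudogene, and Tpsb2 as protein coding. Tpsab1 (1426175_a_at) read 906, 961 and 74.1 in WT and 42.3, 47.8 and 41.6 in miR-21 cKO. The miR-21 cKO arrays lay below all WT arrays, and WT array 3 lay near them. The means were 647 ± 497 (SD, n = 3) and 43.9 ± 3.37 (SD, n = 3), with a log2 difference of -3.20 (standard error 1.44).

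Of the 2 probe sets of Tpsb2, 1422180_a_at read 1446, 902 and 1283 in WT and 1863, 71.3 and 392 in miR-21 cKO. The WT arrays were close to each other (log2 SD 0.35), the miR-21 cKO arrays held both the highest and the lowest value (log2 SD 2.35), and the log2 difference was -1.67 (standard error 1.12). Tpsb2 1451802_at read 1225, 422 and 611 in WT and 166, 648 and 60.2 in miR-21 cKO, with overlap and a log2 difference of -1.87 (standard error 1.34). Both Tpsb2 probe sets thus had a negative difference, though miR-21 cKO array 1 was high with the first and low with the second. How far the probe sets of the tryptase genes share RNA was not tested.

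Cma1 and Mcpt4 are chymases of 1 gene cluster, with 6 genes between them, among them Mcpt1 and Mcpt2. Cma1 (1449456_a_at) read 1387, 360 and 381 in WT and 261, 441 and 323 in miR-21 cKO. WT array 1 alone stood out, the other 5 arrays lay between 261 and 441, and the log2 difference was -0.79 (standard error 1.26). Mcpt4 (1425967_a_at) read 277, 219 and 1139 in WT and 69.4, 195 and 1222 in miR-21 cKO, with 1 high array in each genotype and a log2 difference of -0.69 (standard error 1.38).

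Cpa3, the mast cell carboxypeptidase stored beside the chymases, read 243, 669 and 198 in WT and 128, 1244 and 1114 in miR-21 cKO (1448730_at). Its genotypes overlapped, and the log2 difference was 0.82 (standard error 1.28). Hdc, histidine decarboxylase, had 2 probe sets with differences of opposite sign. Hdc 1451796_s_at read 152, 49.2 and 171 in WT and 195, 173 and 165 in miR-21 cKO, and its log2 difference was 0.71 (standard error 1.46). Hdc 1454713_s_at read 131, 69.0 and 653 in WT and 35.6, 61.5 and 271 in miR-21 cKO, and its log2 difference was -1.11 (standard error 1.41).

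At the thresholds of the study's methods (2-fold and p under 0.05, not adjusted), 3 of the 13 probe sets were called lower in miR-21 cKO by limma (Fcer1a, Ms4a2 1443264_at and Tpsab1), beside 2.40% of all tested probe sets. None was called higher, beside 2.11% of all. Because this contrast was known when the genes were chosen, nothing is read from the count. Fcer1a and Tpsab1 were the 2 of the 13 with every miR-21 cKO array below every WT array, which 5.07% of all tested probe sets showed. The log2 difference was negative for 9 of the 13 and positive for 4, with a median of -1.11, against a median of -0.03 over all tested probe sets, of which 51.1% were negative. After Benjamini-Hochberg adjustment over 45037 probe sets, none of the 13 passed, and the smallest adjusted p from limma was 0.9999.

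The calls changed when 1 array was left out, but such a fit also has fewer arrays and so less precision. Fcer1a and Tpsab1 lost their calls without each of the miR-21 cKO arrays. Their log2 differences there stayed between -3.16 and -3.0 for Fcer1a and between -3.26 and -3.16 for Tpsab1. A lost call therefore need not mean that it rested on the array left out. Without WT array 1 none of the 13 was called. Without WT array 2 Fcer1a alone was called, without miR-21 cKO array 2 Ms4a2 1443264_at alone, and without WT array 3 all 3 were. Without miR-21 cKO array 1 the only call was Tpsb2 1422180_a_at, lower with a log2 difference of -2.83, and without miR-21 cKO array 3 it was Kit 1452514_a_at, higher with 3.48. When 1 array was left out, the log2 difference ranged from -3.94 to -2.48 for Fcer1a, from -4.30 to -2.08 for Ms4a2 1443264_at and from -4.41 to -2.57 for Tpsab1. Signs changed for Ms4a2 1421475_at (-0.61 to 1.83) and Mcpt4 (-1.82 to 0.25), and for no other of the 13.

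**Figure D2:**
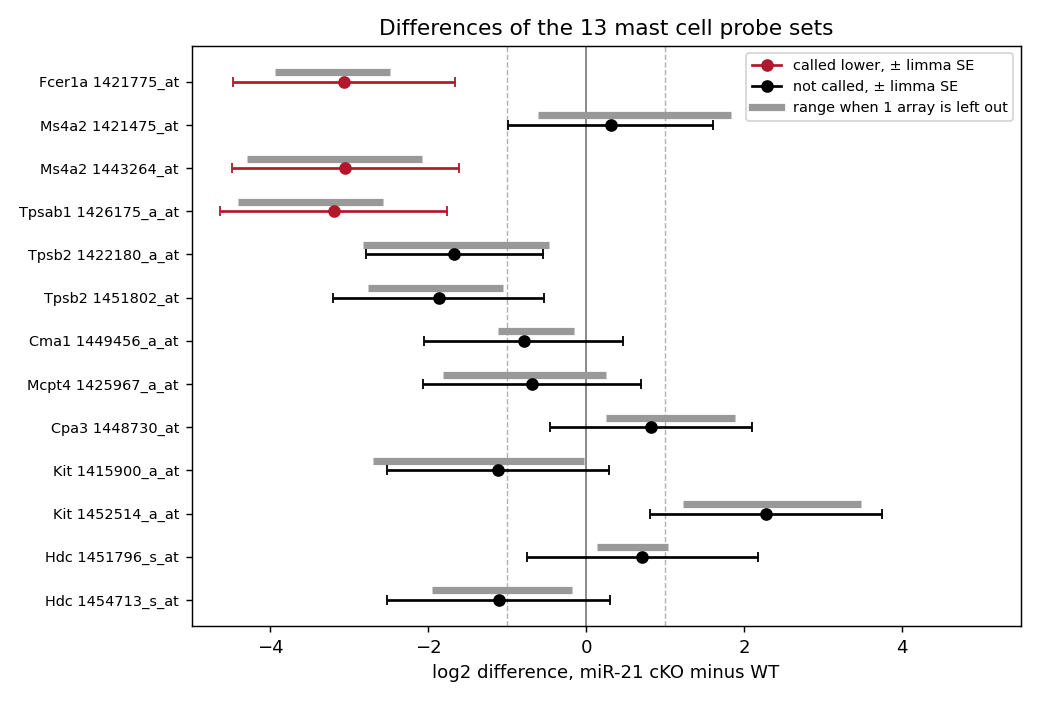
Log2 difference (miR-21 cKO minus WT) of the 13 mast cell probe sets, as points with the limma standard error, above which a grey bar spans the values when 1 array is left out. The 3 red points, between -3.20 and -3.05, are the probe sets called lower at the thresholds of the methods, and the dashed lines mark 2-fold.

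Probe sets of 1 gene gave unlike differences for 3 of the 4 genes that had 2. The sign was opposite for Ms4a2, Kit and Hdc and the same for Tpsb2. Over the 6 arrays, the log2 signals of the 2 probe sets had a Pearson correlation of 0.31 for Ms4a2, 0.03 for Tpsb2, -0.35 for Kit and 0.19 for Hdc. These are descriptions over 6 arrays of 2 genotypes.

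Arrays also differed in how the 13 probe sets lay as a group. Their median signal was 277, 422 and 528 in WT and 102, 195 and 271 in miR-21 cKO. The median of Olfr probe sets was 330, 498 and 376 in WT and 690.2, 464 and 417 in miR-21 cKO. For all tested probe sets it lay between 271 and 310 on every array. Thus the mast cell median was below that of Olfr on 5 of the 6 arrays and above it on WT array 3. The lowest of the 6 arrays was a miR-21 cKO array for 11 of the 13 probe sets, 6 of them on miR-21 cKO array 1. The highest was a WT array for 6 and a miR-21 cKO array for 7.

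With the brightest probe set of each of the 9 genes, the geometric mean signal was 396, 384 and 394 in WT and 126, 177 and 361 in miR-21 cKO. On the log2 scale that was 8.61 ± 0.02 (SD, n = 3) and 7.65 ± 0.77 (SD, n = 3). The WT values lay together although single genes did not, and miR-21 cKO array 3 lay close to WT. The profile of these 6 means was set against 1660 other genes whose brightest probe set had a mean above the Olfr background, leaving out Y-linked genes and Xist. The most like it were Rbmxl2 (Pearson r 0.982), Tbc1d5 (0.980), Vps13d (0.973), Srsf1 (0.970) and Aqr (0.966). Rbmxl2, for example, read 4891, 3672 and 1946 in WT and 59.0, 257 and 3499 in miR-21 cKO. In all, 23 genes had an r above 0.9. With 6 arrays such values describe likeness only.

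**Figure D3:**
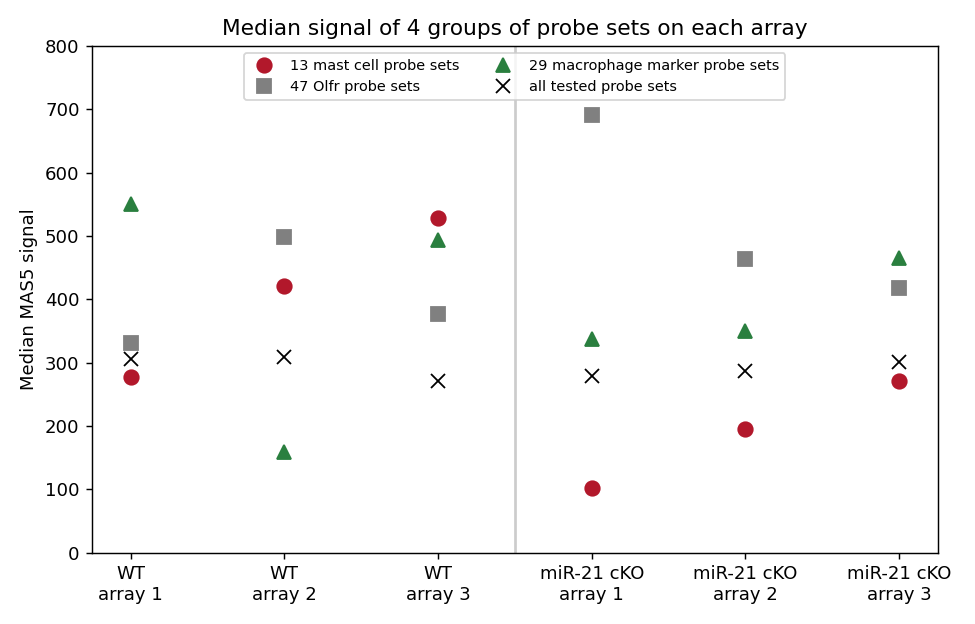
Median MAS5 signal of 4 groups of probe sets on each array (vertical axis, linear, from 0). The 13 mast cell probe sets lie between 277 and 528 in WT and between 102 and 271 in miR-21 cKO, while all tested probe sets stay between 271 and 310.

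The labelled cell type was checked against 20 macrophage markers, of which 19 were measured with 29 probe sets. Their median signal was 159 to 550 in WT and 337 to 466 in miR-21 cKO, and 2 of the 29 (6.90%) had a mean above the Olfr background, beside 4.95% of all tested probe sets. Adgre1 (F4/80) was one of them and read 2237, 2559 and 1979 in WT and 2095, 96.9 and 2821 in miR-21 cKO. Itgam (CD11b) read 157, 45.7 and 985 in WT and 1016, 983 and 1296 in miR-21 cKO, under the Olfr 95th percentile on all 6. Of the 29 probe sets, 1 (3.45%) was called lower and 3 (10.3%) higher, beside 2.40% and 2.11% of all tested probe sets.

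Other cells could share these genes or be carried along in the sort. Basophils also carry the IgE receptor, and 0 of 5 probe sets of basophil markers were called, with a summed signal of 1949 to 3787 in WT and 1915 to 3957 in miR-21 cKO. Of 5 eosinophil probe sets 0 were called, and their summed signal was 2810 to 3555 in WT and 1945 to 2651 in miR-21 cKO. Their median log2 difference was -1.13, with 4 of the 5 negative, beside -1.11 for the 13 mast cell probe sets. Over the 8 lists of other cell types this median ran from -1.13 to 0.69 (endothelium). Fibroblast markers, with 14 probe sets, summed to 7028 to 8607 in WT and 3619 to 6606 in miR-21 cKO, and 1 was called lower. The 13 mast cell probe sets summed to 6073 to 7920 and 4053 to 6619. Eosinophil and fibroblast sums, 2 of the 8 lists of other cell types, were lower on every miR-21 cKO array than on every WT array. Of their single probe sets, 1 of 5 and 1 of 14 lay so, beside 5.07% of all tested probe sets. No such share was computed for sums. The part of either cell type in the mast cell values was not tested. Over 8 lists of other cell types, 2 of 76 probe sets (2.63%) were called lower and 1 (1.32%) higher, beside 2.40% and 2.11% of all. Of the 76, 7 (9.21%) had a mean above the Olfr background, beside 4.95% of all.

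Further genes of mast cells and their signalling came from 7 lists of 75 genes, of which 68 were measured with 150 probe sets. Here 5 probe sets of 4 genes fell and 3 probe sets of 3 genes rose at the thresholds of the methods, 3.33% and 2.0% of the 150, against 2.40% and 2.11% of all tested probe sets. The median log2 difference of the 150 was -0.16. By list it was 0.09 for other mast cell genes, 0.23 for granules and secretion, 0.62 for histamine and 0.53 for transcription factors. It was -0.51 for prostaglandin and leukotriene synthesis, -0.36 for IgE receptor signalling and -0.12 for the genes around Kit. The lists, too, were chosen with earlier results of these data known, so these counts and the p-values of their genes are descriptions. None passed an adjusted p from limma (smallest 0.9999). By the methods' t-test 3 of the 8 kept their call and the calls of Enpp3 1439260_a_at, Hs6st1, Syk, Fcgr2b and Pik3cd were lost. Among the 150 there were 3 lower and 6 higher calls without WT array 1, and 2 lower and 7 higher without WT array 2. There were 7 lower and 2 higher without miR-21 cKO array 1, and 6 lower and 1 higher without miR-21 cKO array 3. The balance of directions thus changed with the array left out. The share of all tested probe sets called in these fits is not given here. Further, 2 of the 8 were called again whichever array was left out, and 9 of the 150 had a mean above the Olfr background.

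Among 10 measured of 14 other mast cell genes, Enpp3, an ectonucleotidase on activated mast cells and basophils, fell with 2 of its 5 probe sets. Enpp3 1427302_at read 1161, 1521 and 1278 in WT and 91.6, 26.7 and 124 in miR-21 cKO. The WT arrays were alike and well above all miR-21 cKO arrays, the log2 difference was -4.29 (standard error 1.41, unadjusted p = 0.0024 and adjusted p = 0.9999 from limma), and the call held whichever array was left out. Of its 6 signals, 1 (WT array 2) was above the Olfr 95th percentile of its array. Enpp3 1439260_a_at read 756, 12.6 and 980.1 in WT and 21.9, 75.8 and 19.0 in miR-21 cKO, with overlap and a log2 difference of -2.74 (standard error 1.19). That call held in 2 of the 6 fits without 1 array (-4.77 to -1.63), and it was lost with the floor on signals and with eBayes without trend. Over its 5 probe sets the log2 difference of Enpp3 ran from -4.29 to 1.21. The proteases Mcpt1 (-1.39) and Mcpt2 (-1.05) of the chymase cluster, the tryptase Tpsg1 (2.88) and the amine transporter Slc18a2 (2.07), which loads histamine into granules, did not pass.

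Of 10 measured genes for granules and secretion, Hs6st1, a sulfotransferase of heparan sulfate, fell from 1873, 1436 and 874 in WT to 53.5, 92.2 and 1543 in miR-21 cKO (log2 difference -2.76, standard error 1.21). It was as bright on miR-21 cKO array 3 as in WT and kept its call in 2 of the 6 fits without 1 array. None of 10 probe sets for prostaglandin and leukotriene synthesis, 7 for histamine receptors and breakdown and 15 for mast cell transcription factors passed. Gata2, which mast cells need, had log2 differences of -0.99 and -0.48 with its 2 probe sets, and Mitf -1.89 and 1.58. Of all 15 transcription factor probe sets, 7 had a negative difference, and the median was 0.53.

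Of 17 measured genes downstream of the IgE receptor, with 43 probe sets, 2 probe sets rose and 1 fell. Syk, the kinase that binds the phosphorylated receptor, rose with 1 of 4 probe sets (1425797_a_at), from 76.1, 803 and 39.9 to 786, 1460 and 678, a log2 difference of 2.77 (standard error 1.35). Its 4 probe sets ran from -2.37 to 2.77. Fcgr2b, an inhibitory IgG receptor that macrophages also carry, rose with 1 of 5 probe sets (1451941_a_at), from 39.6, 976 and 106 to 1115, 962 and 1204 (2.77, standard error 1.28). Both overlapped between the genotypes and kept their call in 1 of the 6 fits. Pik3cd, the delta subunit of PI3-kinase, fell with 1 of 6 probe sets (1458321_at), from 8194, 8819 and 4272 to 5235, 3156 and 1161, a log2 difference of -1.34 (standard error 0.61). It was above the Olfr 95th percentile on 5 of the 6 arrays, its genotypes overlapped, and its call held in 3 of the 6 fits. Over its 6 probe sets the log2 difference of Pik3cd ran from -1.34 to -0.36. The brightest of them, 1443798_at, had -0.65 and was not called. Fcer1g, the gamma chain that the IgE receptor shares with Fc receptors of macrophages, had a log2 difference of -1.64 and did not pass.

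Of 11 genes around Kit, with 36 probe sets, 1 rose and 1 fell. Pik3r1, a regulatory subunit of PI3-kinase, rose with 1 of 4 probe sets (1438682_at), from 264, 262 and 281 in WT to 2289, 1458 and 1707 in miR-21 cKO. The genotypes did not overlap, the log2 difference was 2.73 (standard error 1.10, unadjusted p = 0.013 and adjusted p = 0.9999 from limma), and the call held whichever array was left out. The other Pik3r1 probe sets went as low as -1.99. Cbl, a ubiquitin ligase that turns over active Kit, fell with 1 of 3 probe sets (1455886_at), from 637, 671 and 1220 to 241, 86.5 and 33.3 (log2 difference -3.19, standard error 1.45), without overlap, and its call held in 2 of the 6 fits. The probe sets of Kitl, stem cell factor itself, had differences of 0.10 to 2.42 and none passed.

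**Figure D4:**
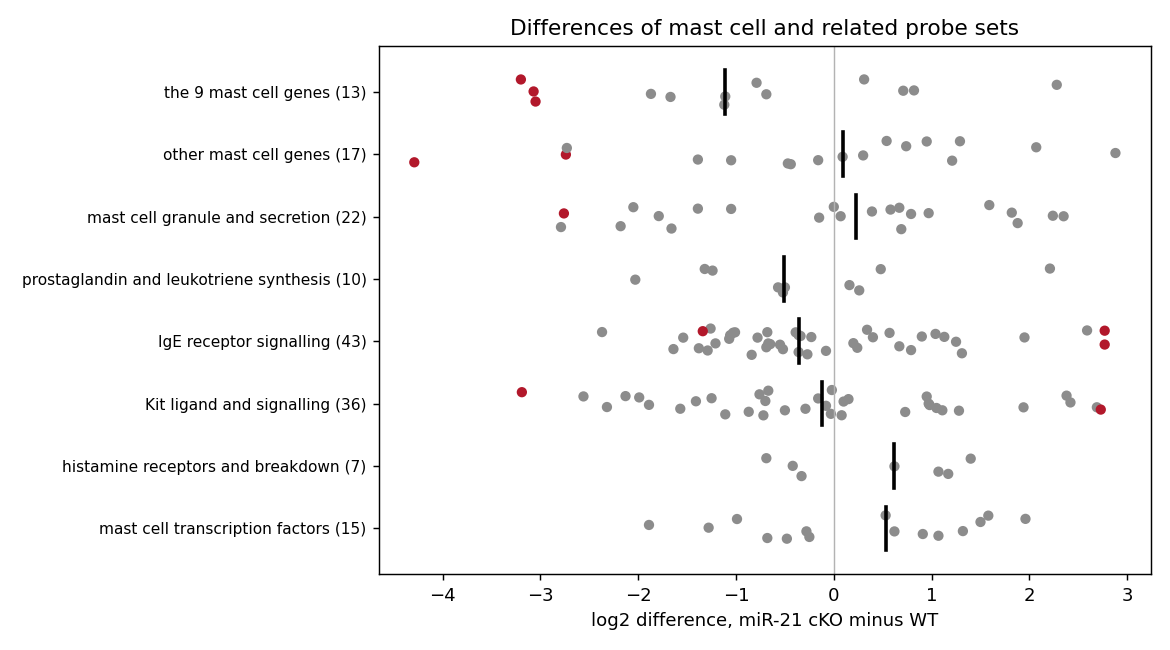
Log2 difference (miR-21 cKO minus WT) of each probe set, in rows for the 9 mast cell genes and for 7 further lists, with the number of probe sets in brackets, red for probe sets called at the thresholds of the methods and a black line at each row's median. The median is -1.11 for the 9 mast cell genes, whose contrast was known when they were chosen. The further lists were also chosen with earlier results of these data known. Vertical scatter within a row has no meaning.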

How the data were processed

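Per the labels, cRNA made with the WT Pico kit was read on Affymetrix Mouse430_2 arrays. MAS5 signals came from Expression Console, as the authors describe, with no version stated in the sources used here. Deposited files hold 1 intensity per probe set, linear and brought by the authors to a common trimmed mean on each array. The kit primes along whole transcripts, while the probes of this array lie toward transcript ends. Probe sequences were not at hand, so the strand the probe sets read and their cross-hybridization were not checked. Arrays have no read depth, and the fitted standard error depends on their number and on the brightness of a probe set. Groups and replicate numbers came from the sample titles.

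Control probe sets of the manufacturer, 64 of 45101, were left out, and dim probe sets were kept. The platform's annotation named the probe sets, and 34741 of 34945 single-gene names were updated through RefSeq (GRCm38.p6, for names and gene order only). Signals were taken to log2 without a pseudocount. Differences came from limma 3.58.1 (lmFit, eBayes with an intensity trend) in R 4.3.3, over all 45037 probe sets, with p-values adjusted by the Benjamini-Hochberg method. The prior degrees of freedom came out infinite, so a standard error reflects brightness and not the spread of that probe set. The methods name a p under 0.05 and 2-fold as thresholds. For the arrays they name software and no test, and their statistics section gives Student's t-test for comparing 2 groups. That test was run here on log2 signals and is called the methods' t-test. The code was tested on simulated data. Background was the 95th percentile of Olfr probe sets, over the means and within each array. Alternatives were other normalizations, a filter, a floor, eBayes without trend, the methods' t-test, a replicate block and leaving out each array. Figures used matplotlib 3.10.9 in Python 3.11.15.

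The genes and lists were chosen with earlier results of these data known. Every probe set of the 9 genes is named, and of the pathway lists every gene with a called probe set. Mcpt1, Mcpt2, Tpsg1, Slc18a2, Gata2, Mitf, Fcer1g and Kitl were named for their role after their values were seen. Nothing in the labels ties a replicate to a number of animals, so the unit behind the p-values is the pool. Limma p-values rest on the variance fitted at a probe set's brightness. Those of the t-test rest on the probe set's own spread between pools.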

Additional observations from a re-analysis of the deposited data

How the results depend on the processing

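The 3 calls among the 13 mast cell probe sets became 1 with a filter at the median level, which left 8 of the 13 (Fcer1a and Tpsab1 were removed and Ms4a2 1443264_at was called), 1 (Fcer1a) by the methods' t-test and 0 with signals raised to a floor of 94.3, their 25th percentile. They ranged from 0 to 3 when 1 array was left out. With quantile normalization, median centring, eBayes without trend and the replicate block the count was 3. The replicate numbers are not known to pair the arrays, and deviations of same-numbered arrays correlated between -0.033 and -0.016. The median log2 difference of the 13 ranged from -1.70 to -0.35 when 1 array was left out, the latter without WT array 3, and from -1.11 to -0.76 in the other settings. The count of mast cell probe sets above background, 0 with Olfr, was 1 with vomeronasal receptor probe sets in place of Olfr, and 0 to 1 when 1 array was left out (1 without miR-21 cKO array 2). The pathway lists had 8 calls in the main fit, 5 lower and 3 higher. Their total was 5 with the floor (3 lower, 2 higher), 10 with quantile normalization (5 and 5) and 11 with eBayes without trend (5 and 6). By the methods' t-test the total was 7 (5 and 2), of which 3 were among the 8 of the main fit. The totals were 6 to 9 when 1 array was left out, with 2 to 7 lower and 1 to 7 higher. The causes of the other changes were not tested. Signals that do not stand above Olfr limit what any of these values says about RNA.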
